A study of Mus musculus with 8 samples.

Results

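The 9 genes described here were grouped as the machinery of the sterol regulatory element-binding proteins (SREBPs). Such machinery makes, holds, moves and cuts SREBPs in the endoplasmic reticulum (ER) and Golgi. The 9 genes are the precursors *Srebf1* and *Srebf2*, the escort *Scap*, the retention proteins *Insig1* and *Insig2* and the proteases *Mbtps1* and *Mbtps2*. With them are the ER ubiquitin ligase *Rnf139* and the UBX-domain protein *Ubxn8*. The UBX protein known to extract ubiquitinated INSIG1 is encoded by *Faf2*, which is not among the 9. A part of *Ubxn8* in SREBP processing was not tested. The genes were chosen by name, and every array probe whose RefSeq transcript mapped to one of them was taken, which gave 15 probes for 9 of the 14065 genes with a symbol that were tested. All 15 probes were well above background on all 8 arrays, so none was lost to the filter on dim probes.

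Liver RNA was measured in 4 *Agpat3* WT and 4 *Agpat3* KO mice on 1-color Agilent arrays, 1 array per mouse, to see how the liver transcriptome differs without AGPAT3, an acyltransferase that puts docosahexaenoic acid into phospholipids. All mice were 10-week-old males on a C57BL/6 background, and the KO mice lacked *Agpat3* in the whole body rather than in hepatocytes alone. The targeted gene matched the labels, since its brighter probe lay between 5.65 and 5.88 in WT and between -0.58 and 0.02 in KO on the log2 scale used throughout. The feeding state of these mice and the time of day are not given in the sources used here.

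SREBPs are made as inactive precursors in the ER membrane, where SCAP binds them and INSIG1 or INSIG2 holds the complex back when sterols are plentiful. When they let go, SCAP carries the precursor to the Golgi in COPII vesicles, and the site-1 and site-2 proteases cut it in turn so that the transcription factor part can enter the nucleus. In the liver SREBP1, mostly as its 1c form, is known for driving fatty acid synthesis and SREBP2 for driving cholesterol synthesis and uptake, and *Srebf1*, *Srebf2* and *Insig1* are themselves known SREBP target genes. Arrays measure mRNA and not the cut protein, so none of the values below is a measure of SREBP processing.

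In *Agpat3* KO liver the mRNA of the SREBP1 precursor was 1.71-fold that in WT liver and was the 1 member of 9 that passed the test. *Insig1* had the larger fold change, 2.17, but also the larger spread between mice, and it fell just outside the threshold. The other 7 genes had log2 fold changes between -0.20 and 0.27, with a median of -0.08. The call required a change of more than 1.5-fold together with an adjusted p below 0.2. Both thresholds follow the study's array legend, where an adjustment of p is not mentioned. The p is from limma with Benjamini-Hochberg adjustment over all 29067 probes tested, and each gene was read from its brightest probe. By this rule 1 member was called higher and 0 lower, beside 1.01% of the 14065 genes called higher and 0.754% called lower. At an unadjusted limma p under 0.05 there were 3 members, *Srebf1* and *Insig1* with higher and *Mbtps2* with lower signal in KO, beside 14% of all genes. All signals are log2 of the processed intensity over the 75th percentile of the array, and they compare mice for 1 probe but not probes with each other. The p-values rest on the spread between these 8 mice, and limma also draws the spread of each probe towards that of all tested probes. In whole liver a change in the number of cells of a type and a change in RNA per cell cannot be told apart.

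**Figure D1:**
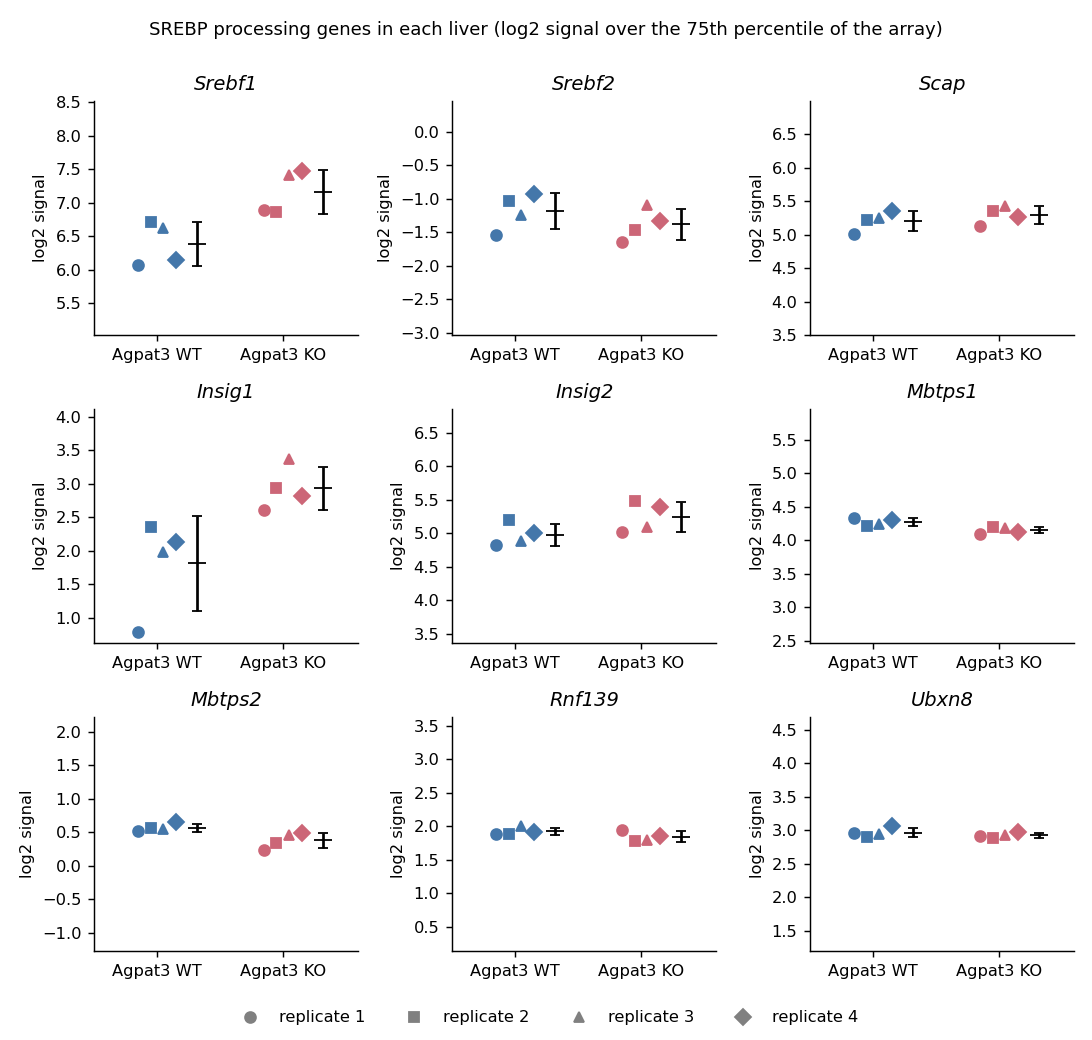
Log2 signal of the brightest probe of each of the 9 genes in every mouse, over the 75th percentile of the array (y axis, log2, spanning the same range in every panel), with Agpat3 WT and Agpat3 KO side by side, 1 symbol per replicate number and bars for mean ± SD (n = 4). The KO mice lie above all WT mice for Srebf1 and Insig1, below all WT mice by at most 0.20 on average for Mbtps1 and Mbtps2, and overlap the WT mice for the other 5 genes.

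*Srebf1* encodes SREBP1, the precursor of the factor that activates fatty acid synthesis genes. Its probe (NM_011480) read 6.08, 6.72, 6.63 and 6.14 in WT and 6.89, 6.87, 7.42 and 7.47 in KO on the log2 scale. Every KO mouse was above every WT mouse, and 2 KO mice (replicates 3 and 4) stood clearly above the other 2. The mean rose from 6.39 ± 0.33 to 7.16 ± 0.33 (SD, n = 4), a log2 fold change of 0.77 with a standard error of 0.20, and its 95% interval ran from 0.30 to 1.24 (adjusted p = 0.168 from limma). An exact permutation test over the 70 assignments of 4 and 4 mice gave a two-sided p of 0.0286, the smallest that this design allows. Of all tested probes, 3.03% had a smaller p in the same fit. The call did not hold with any 1 of the 8 arrays left out, where the log2 fold change was between 0.67 and 0.88 and the adjusted p of limma between 0.204 and 0.284.

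The RefSeq table of mouse promoters held 12 windows for 7 of the 9 genes. *Srebf1* has 3 of them, of 300 bases, each reaching 250 bases upstream and 50 downstream of a transcription start. The most downstream of the 3, at chr11:60210422-60210721 on the minus strand of GRCm38.p6, is shown because it holds a liver X receptor type repeat, a kind of site through which *Srebf1* transcription is known to be raised. Capitals mark every match to 1 of 5 patterns searched on both strands, which are the sterol regulatory element TCACCCCA, the NF-Y box CCAAT, the GC box GGGCGG, the E-box CACGTG and the direct repeat DR4, the class of site bound by liver X receptors.
Srebf1: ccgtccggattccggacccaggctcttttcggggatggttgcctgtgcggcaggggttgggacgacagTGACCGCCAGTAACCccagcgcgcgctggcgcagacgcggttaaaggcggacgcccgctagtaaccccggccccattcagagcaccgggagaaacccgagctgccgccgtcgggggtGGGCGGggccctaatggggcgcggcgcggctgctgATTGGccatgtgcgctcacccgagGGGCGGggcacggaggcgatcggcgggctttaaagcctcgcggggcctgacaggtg
The repeat lies on the opposite strand with its first base 182 bases upstream of the start, and the window also has an NF-Y box and 2 GC boxes. Of 32851 mouse promoter windows of this length, 0.718% hold the repeat, 37.4% an NF-Y box and 35.7% a GC box. The other 2 *Srebf1* windows have an NF-Y box in one and 3 GC boxes in the other. None of the 3 holds TCACCCCA, which says only that these letters are not in these windows. Which of the starts the array probe reads was not tested, and a match is a description of sequence and not of binding.

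*Srebf2*, the precursor gene of the cholesterol pathway, is shown next because its promoter is the 1 member window that holds TCACCCCA. Only these exact letters were searched for as a sterol regulatory element. The window lies at chr15:82147019-82147318 on the plus strand of GRCm38.p6, and capitals mark the same 5 patterns.
Srebf2: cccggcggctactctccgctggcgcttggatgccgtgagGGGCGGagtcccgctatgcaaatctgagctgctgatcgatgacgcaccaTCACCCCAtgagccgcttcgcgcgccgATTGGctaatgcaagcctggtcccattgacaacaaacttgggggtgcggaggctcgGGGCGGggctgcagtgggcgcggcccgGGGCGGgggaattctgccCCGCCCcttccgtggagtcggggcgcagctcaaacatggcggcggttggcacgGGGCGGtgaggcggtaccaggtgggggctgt
TCACCCCA begins 162 bases upstream of the start and is followed by an NF-Y box on the other strand at 135 bases, with 5 GC boxes in the window. Among all promoter windows, 1.56% hold TCACCCCA.

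The *Srebf2* probe (NM_033218) read -1.54, -1.04, -1.25 and -0.93 in WT and -1.65, -1.47, -1.09 and -1.33 in KO. The groups overlapped, with KO replicate 3 among the higher WT values. The log2 fold change was -0.20 with a standard error of 0.16 (95% interval -0.57 to 0.17, adjusted p = 0.657 from limma), and the exact permutation p was 0.314. The upper end of this 95% interval was a rise of *Srebf2* by 1.13-fold.

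The precursors were then set against each other within each array. The difference *Srebf1* minus *Srebf2* was 7.58 ± 0.36 in WT and 8.55 ± 0.19 in KO (SD, n = 4), a change of 0.97 on the log2 scale with a standard error of 0.20. All KO mice, between 8.34 and 8.81, lay above all WT mice, between 7.07 and 7.88. The exact permutation p (two-sided) was 0.0286, and 0.0429 after adjustment over the 3 pairs compared. The ratio of the precursor signals was thus 1.96-fold higher in KO. *Srebf1* alone was 1.71-fold higher, and the rest came from the lower *Srebf2* signal, whose groups overlapped. How often other pairs of genes separate in this way was not tested. Without WT replicate 1 or without KO replicate 3 all KO mice still lay above all WT mice, with changes of 0.98 and 0.98. The unadjusted exact p stayed at 0.0286. The adjusted exact p was 0.0857 in both cases, because the exact p of *Insig1* minus *Insig2*, a pair in the same adjustment, rose.

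*Scap* encodes the sterol-sensing escort. Its probe (NM_001001144) read 5.00, 5.22, 5.25 and 5.35 in WT and 5.12, 5.36, 5.43 and 5.27 in KO, with overlapping groups. The log2 fold change of 0.09 had a 95% interval from -0.14 to 0.32, so that a fold change above 1.25 lay outside it (adjusted p = 0.752 from limma). The *Scap* promoter windows in RefSeq overlap, and both hold the same E-box. Of all windows, 7.15% hold an E-box.

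*Insig1* encodes the retention protein whose mRNA is known to follow SREBP activity closely. Its single promoter window, at chr5:28071162-28071461 on the plus strand of GRCm38.p6, is shown because *Insig1* had the largest fold change of the members. Capitals mark the same 5 patterns.
Insig1: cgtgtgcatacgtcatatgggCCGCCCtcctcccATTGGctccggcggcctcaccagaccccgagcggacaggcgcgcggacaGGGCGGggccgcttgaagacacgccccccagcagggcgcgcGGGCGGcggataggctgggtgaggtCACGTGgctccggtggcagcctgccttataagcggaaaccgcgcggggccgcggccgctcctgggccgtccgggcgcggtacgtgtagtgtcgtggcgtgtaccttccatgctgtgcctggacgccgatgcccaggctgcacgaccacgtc
It holds an E-box 101 bases upstream of the start, an NF-Y box at 216 bases and 3 GC boxes. TCACCCCA was not among the matches.

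The *Insig1* probe (NM_153526) read 0.78, 2.35, 1.97 and 2.14 in WT and 2.60, 2.93, 3.37 and 2.82 in KO. Every KO mouse was above every WT mouse, but WT replicate 1 lay far below the other 3 WT mice. The means were 1.81 ± 0.70 and 2.93 ± 0.32 (SD, n = 4), and the log2 fold change was 1.12 with a standard error of 0.33 (95% interval 0.36 to 1.88). The exact permutation p was 0.0286. With an adjusted p of 0.207 from limma, *Insig1* was not called. Without WT replicate 1 the spread shrank and the log2 fold change became 0.78 with an adjusted p of 0.182 from limma, which would be called. WT replicate 1 also had the lowest mean log2 signal over 22 cholesterol genes, 3.48 against 3.95 to 4.41 in the other WT mice and 4.36 to 4.95 in the KO mice. The part of these genes' low signals in the *Insig1* value was not tested.

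*Insig2* encodes the second retention protein and has 3 probes for 2 transcript accessions. The brightest (NM_133748) read 4.82, 5.20, 4.88 and 5.00 in WT and 5.01, 5.48, 5.09 and 5.39 in KO, with overlapping groups. Its log2 fold change was 0.27 with a standard error of 0.13 (95% interval -0.03 to 0.57, adjusted p = 0.433 from limma). The other 2 probes (both NM_001271532) gave 0.27 and 0.16, the same direction, with adjusted p of 0.465 and 0.593 from limma. Among its 3 promoter windows, 1 holds 3 NF-Y boxes and the other 2 hold 1 GC box each.

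The difference *Insig1* minus *Insig2* rose by 0.85 on the log2 scale (standard error 0.35), from -3.16 ± 0.58 in WT to -2.31 ± 0.40 in KO (SD, n = 4). The KO mice, between -2.57 and -1.72, were all above the WT mice, between -4.03 and -2.85. The exact permutation p was 0.0286, or 0.0429 adjusted over the 3 pairs. The change depended on single mice for its size and its adjusted exact p. It was 0.56 without WT replicate 1 (adjusted exact p = 0.0857) and 0.66 without KO replicate 3 (adjusted exact p = 0.129).

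**Figure D2:**
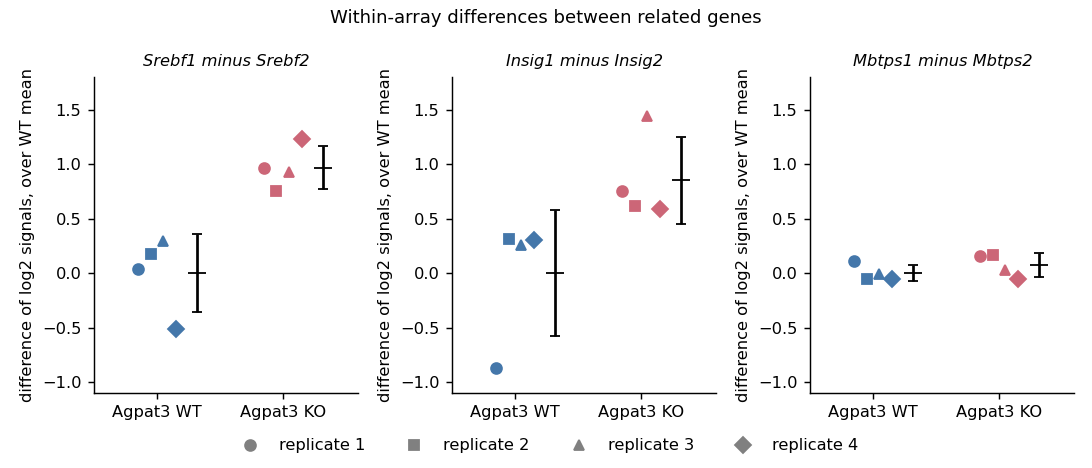
Within-array difference of log2 signals between related genes in every mouse, shown over the WT mean (y axis, log2), for Srebf1 minus Srebf2, Insig1 minus Insig2 and Mbtps1 minus Mbtps2, with mean ± SD (n = 4). The KO mice separate from the WT mice in the first and second panels, by 0.97 and 0.85 on average, and overlap them in the third, where the change was 0.07.

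*Mbtps1* encodes site-1 protease, which makes the first cut. Its brightest probe (NM_019709) read 4.33, 4.22, 4.24 and 4.30 in WT and 4.10, 4.20, 4.18 and 4.13 in KO. The KO mice were all below the WT mice, by a narrow margin and with small spreads of 0.053 and 0.048 (SD, n = 4). The log2 fold change was -0.12 (standard error 0.06, 95% interval -0.26 to 0.02, adjusted p = 0.470 from limma), and the exact permutation p was 0.0286. The other 3 probes gave -0.13, -0.11 and -0.08, and 1 of those 3 had groups that did not overlap.

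*Mbtps2* encodes site-2 protease, the membrane metalloprotease of the following cut. Its brighter probe (NM_172307) read 0.51, 0.57, 0.54 and 0.65 in WT and 0.24, 0.33, 0.45 and 0.48 in KO, again with every KO mouse below every WT mouse. The log2 fold change was -0.19 (standard error 0.08, 95% interval -0.37 to -0.02, adjusted p = 0.333 from limma), and the exact permutation p was 0.0286. The dimmer probe gave -0.04 with overlapping groups. Thus 2 of the 9 genes had KO below WT without overlap and 2 had KO above WT, beside 5.89% and 3.84% of all genes. The difference *Mbtps1* minus *Mbtps2* changed by 0.07 (standard error 0.07), with an exact permutation p of 0.286 before and after adjustment over the 3 pairs.

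*Rnf139* encodes TRC8, an ER ubiquitin ligase that binds INSIG proteins. Its probe (NM_175226) read 1.88, 1.89, 2.00 and 1.91 in WT and 1.95, 1.78, 1.79 and 1.86 in KO, with overlapping groups. The log2 fold change was -0.08 (95% interval -0.23 to 0.08, adjusted p = 0.687 from limma). With normexp background correction the sign turned, to 0.0026.

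*Ubxn8* encodes an ER membrane protein that tethers the p97 ATPase. Its probe (NM_178648) read 2.96, 2.89, 2.95 and 3.06 in WT and 2.91, 2.88, 2.92 and 2.97 in KO. The groups overlapped nearly fully, and the log2 fold change was -0.04 (95% interval -0.19 to 0.10, adjusted p = 0.822 from limma). For 7 of the 9 genes, all but *Srebf1* and *Insig1*, the 95% interval lay wholly within a fold change of 1.5 in either direction. The SD between mice of these 7 genes ran from 0.053 to 0.27 within WT (median 0.068) and from 0.040 to 0.24 within KO (median 0.113), widest for *Srebf2* in both, and the median within WT over all tested probes was 0.16.

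**Figure D3:**
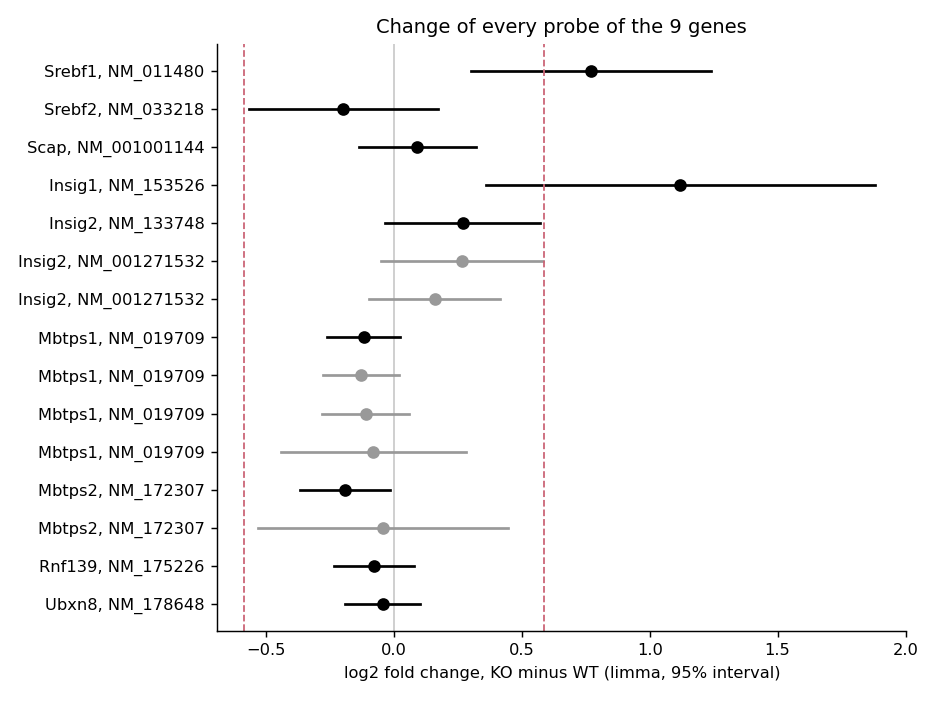
Log2 fold change, KO minus WT, with its 95% interval from limma (x axis) for each of the 15 probes (y axis, gene and transcript), the brightest probe of each gene in black and the others in gray, with dashed lines at a fold change of 1.5. Srebf1 at 0.77 and Insig1 at 1.12 lie beyond the upper line with wide intervals, and the other 13 probes lie between the lines.

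The members also varied among mice of 1 genotype, and this was described by correlating deviations from the genotype means over the 8 arrays. *Srebf2* varied most like *Scap* (r = 0.89) and *Insig1* (r = 0.88), and *Scap* varied like *Insig1* (r = 0.85). *Srebf1* followed these genes less, with r = 0.58 for *Insig1*, 0.54 for *Srebf2* and 0.36 for *Scap*. *Mbtps2* also varied like *Srebf2* (r = 0.80). The lowest value among the 36 pairs of members was -0.71, for *Mbtps1* and *Rnf139*. All points share an array and its scaling, so these values are descriptions of 8 livers.

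Among 14057 other genes, the 3 whose deviations were most like *Insig1* included *Mmab* (r = 0.993), an enzyme gene of vitamin B12 metabolism, and *Cbfa2t2* (r = 0.987). For *Srebf2* they were *Mthfd2l* (r = 0.997), 9030204H09Rik (r = 0.989) and *Cyb5b* (r = 0.982). For *Srebf1* they were *Zfp444* (r = 0.979), *Slc13a2* (r = 0.976) and *Btg2* (r = 0.968). For *Insig2* they were *Nars2* (r = 0.983), *Nckap5l* (r = 0.978) and *H2bu2* (r = 0.966). They are the best of 14057 genes over only 8 arrays, and none of the genes named here was called between genotypes.

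The genes around the machinery were read from 5 lists, in which limma called no gene. Among 15 genes for the degradation and retention of INSIG proteins, 0 were called, 2 had an unadjusted limma p under 0.05, and the median log2 fold change was -0.06, against -0.03 over all tested probes. The list holds *Faf2*, which encodes UBXD8, the UBX protein known to extract ubiquitinated INSIG1, at -0.07. The extremes were *Ubxn4* at 0.20 and the deubiquitinase gene *Usp19* at -0.31 (adjusted p = 0.209 from limma). *Usp19* read 2.34, 2.08, 2.10 and 2.36 in WT and 1.90, 1.77, 1.98 and 1.99 in KO, without overlap.

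Of 14 genes listed for COPII and Golgi transport, 11 had a positive and 3 a negative change, with a median of 0.08. The mean log2 signal over the list overlapped between genotypes, at 2.49 to 2.70 in WT and 2.56 to 2.84 in KO. None of the 14 was called and 1 had an unadjusted limma p under 0.05. *Sec23b*, a coat subunit, was highest at 0.26 and *Sec24b*, a cargo-binding subunit, lowest at -0.11. Of 13 genes for the stability and cofactors of nuclear SREBP, 0 were called and 3 had an unadjusted limma p under 0.05. Their median was -0.13, with *Crebbp* (an acetyltransferase coactivator) highest at 0.40 and *Gsk3b* (a kinase that marks nuclear SREBP for degradation) lowest at -0.36. Of 8 genes for other substrates of site-1 protease, 7 were tested, 0 called and 2 at an unadjusted limma p under 0.05, with *Atf6b* at 0.20 and *Creb3l2* at -0.78. *Creb3l2*, an ER-bound transcription factor gene, read -0.71, -0.21, 0.20 and -1.02 in WT and -1.54, -1.46, -0.99 and -0.86 in KO, with overlapping groups (adjusted p = 0.278 from limma).

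Of 15 genes for transcription factors and signals known to act on *Srebf1*, 0 were called and 2 had an unadjusted limma p under 0.05, with a median of -0.08. *Nr1h3*, which encodes the liver X receptor alpha, had a log2 fold change of 0.04, and *Mlxipl*, which encodes ChREBP, 0.14. *Rxrg* was highest at 0.44. *Rxrb*, a partner receptor of the liver X receptors, was lowest at -0.28 with an adjusted p of 0.145 from limma, but its fold change was under 1.5. It read 4.54, 4.49, 4.52 and 4.50 in WT and 4.33, 4.29, 4.12 and 4.18 in KO, with no overlap.

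Downstream of the machinery, genes known to be SREBP targets differed from the machinery itself in their counts. Of 20 fatty acid genes known as SREBP1 targets, 16 were called higher and 0 lower, with a median log2 fold change of 1.00. Among the 16, *Pnpla3*, was well above background on 5 of 8 arrays and passed the filter through the KO mice alone, and the count was 15 when every one of the 8 arrays had to be well above background. Of 22 cholesterol genes known as SREBP2 targets, 4 were called higher (among them *Pmvk*, 0.85, *Fdps*, 0.79, and *Lss*, 0.90) and 0 lower, with a median of 0.53, and all 22 had a positive change. The count of 4 was between 1 and 7 when 1 array was left out. It was 7 without WT replicate 4 or KO replicate 4, 2 without WT replicate 1, and 1 without WT replicate 3 or KO replicates 1, 2 or 3. Over all 23 alternatives it lay between 0 and 10, being 0 at an adjusted limma p under 0.05, 1 with no filter on dim probes or with the methods' t-test after Benjamini-Hochberg adjustment, and 10 and 9 at an unadjusted p under 0.2 from limma and from the methods' t-test. These lists were written with earlier results of these mice known, and no test of 1 list against another was run.

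**Figure D4:**
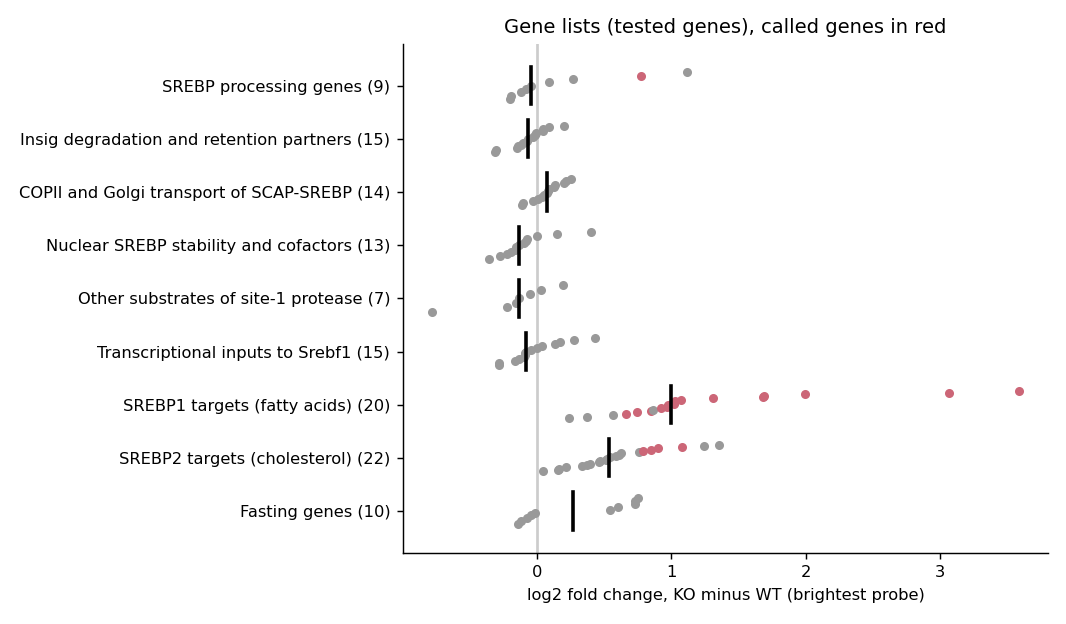
Log2 fold change, KO minus WT (x axis), of the brightest probe of every tested gene in 9 gene lists (y axis, number of genes tested in parentheses), with called genes in red and the list median as a black bar. The machinery and the lists around it are centred near 0 with 1 called gene, whereas the fatty acid list is centred at 1.00 with 16 called and the cholesterol list at 0.53 with 4 called.

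The mean log2 signal over the fatty acid genes, *Pnpla3* included, was 3.49 to 3.79 in WT livers and 4.75 to 5.10 in KO livers, without overlap. *Pnpla3*, which passed the filter through the KO mice alone, had the largest change of the list, 3.59, and so widens this gap. The mean without it was not computed. The mean log2 signal over the cholesterol genes overlapped, at 3.48 to 4.41 in WT and 4.36 to 4.95 in KO. Over 10 fasting genes, whose levels differ between fed and fasted mice, it was 3.48 to 4.67 in WT and 3.93 to 4.63 in KO, with 0 of 10 called by limma and 2 at an unadjusted p under 0.05. *G6pc*, a gluconeogenesis gene, read 6.94, 5.30, 6.44 and 7.02 in WT and 7.30, 7.37, 5.69 and 7.52 in KO. The lowest *G6pc* signals were those of WT replicate 2 and KO replicate 3, the latter the mouse with the highest *Insig1*. The highest *G6pc* signal was that of KO replicate 4, the mouse with the highest *Srebf1*. Some of the other fasting genes had their lowest signals in other mice. The part of feeding state in *Srebf1* or *Insig1* was not tested.

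Of the cell type markers, 8 of 8 hepatocyte genes were tested and 0 called, and their summed linear signal was 4304 to 4823 array units in WT and 4333 to 4615 in KO. Stellate (9 of 9 tested), endothelial (8 of 8), cholangiocyte (3 of 6), acinar (6 of 12) and adipocyte genes (2 of 6) had 0 called, and each of these lists and the hepatocyte list had 0 to 2 genes at an unadjusted limma p under 0.05. Of 8 Kupffer cell genes, *Marco* alone was called, at -1.22, and their summed signal was 92.3 to 151 in WT and 78.1 to 129 in KO. The defining adipocyte markers *Adipoq* and *Plin1* were above background on 0 arrays. The slide carried all WT arrays in row 1 and all KO arrays in row 2, and the effects of row and of genotype cannot be told apart.

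The log2 fold changes of *Srebf1* and *Insig1* were positive under every alternative run, but both sat close to the threshold. *Srebf1* was called in 10 of 20 alternatives, with adjusted p of limma or the methods' t-test between 0.141 and 0.377. *Insig1* was called in 7 of 20, with adjusted p between 0.149 and 0.448. At an adjusted limma p under 0.05 no member was called, beside 0.403% of all probes, and at an unadjusted limma p under 0.2 with the same fold change both were, beside 3.39% of all probes. The 20 count the methods' t-test at an unadjusted and an adjusted p separately.

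**Figure D5:**
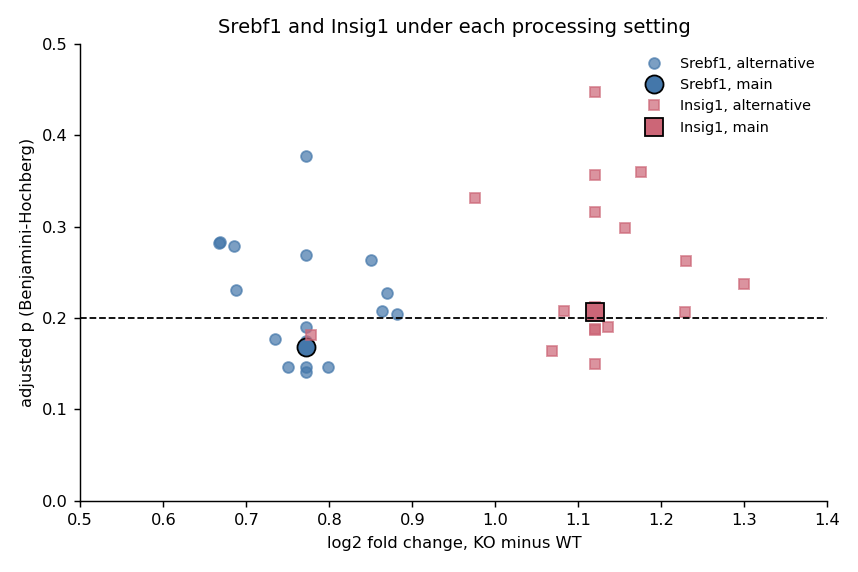
Adjusted p (y axis, Benjamini-Hochberg) against log2 fold change, KO minus WT (x axis), of Srebf1 (circles) and Insig1 (squares) in the chosen analysis (large symbols) and under each alternative (small symbols), with a dashed line at the threshold of 0.2. Symbols of both genes lie on both sides of the line, from 0.67 to 0.88 for Srebf1 and from 0.78 to 1.30 for Insig1.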

How the data were processed

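Liver RNA of 8 mice was labeled with Cy3 and hybridized to 8 Agilent arrays on 1 slide. For each array the authors deposited the output of Agilent's Feature Extraction (version 10.7.1.1), whose processed signal is a background-corrected intensity on a linear scale, and a table of log2 values that equals the log2 of that intensity minus the 75th percentile of the array. The 75th percentile was 261 to 309 and the local background 27 to 32 intensity units. Arrays have no depth, so their number limits the precision.

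Genotypes were taken from the labels. Control and outlier spots were left out, the array's 75th percentile was subtracted from the log2 intensity, and spots of a probe were averaged. Of 56605 probes, 29067 were kept, each well above background on every array of WT, of KO or of both. They were tested two-sided with limma 3.58.1 (lmFit and eBayes, R 4.3.3), with Benjamini-Hochberg adjustment. The files hold transcript accessions, which gave 32994 probes a symbol through the RefSeq table of GRCm38.p6. The scanner output names mm9 as its design build, so coordinates are given only for the RefSeq promoter windows. *Rnf139* and *Ubxn8* had none. Cross-hybridization between related genes was not tested.

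The members and gene lists were chosen with earlier results of these data known. All 9 members and *Agpat3* are named. Of each other list the called genes are named, or the largest rise and fall where none was called, except that the 16 called fatty acid genes are given as a count. For *Srebf1*, *Srebf2*, *Insig1* and *Insig2* the 3 genes with the most similar deviations are added. A few genes that the rule names are not reported here. *Faf2*, *Nr1h3*, *Mlxipl* and *G6pc* were named outside this rule, after their values were seen. Of the fasting and marker lists, the extremes are not named. Samples with the same replicate number shared a slide column but were not taken as pairs. The correlations of their deviations were 0.33, -0.11, 0.10 and 0.32. WT replicates 1, 3 and 4 deviated most like the KO mouse of their own number, and WT replicate 2 did not. A replicate block was therefore run as an alternative, and the part of the column was not tested. The test was checked on simulated data with independent noise and changes larger than that of any member. The check gives no rate of recovery for changes of the members' size.

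The alternatives were normexp background correction (offset 50), median and quantile normalization, the log2 values as deposited, other filters on dim probes, outlier spots kept, eBayes with trend and robust options, a replicate block, each array left out, other thresholds, the methods' unpaired test and the mean over a gene's probes. Normexp used the median spot signal, as the scanner output gives no mean.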

Additional observations from a re-analysis of the deposited data

Results flagged for a closer look

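The dimmer *Agpat3* probe had a WT replicate, number 3, that stood apart from the other WT mice, with a log2 signal of 3.68 against 3.56 to 3.58. Its gap to the nearest mouse was 0.845 of the range of the group. This was 1 of 34 groups of 4 mice checked, and chance marks about 1 in 20.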

How the results depend on the processing

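The number of members called higher was 1. It was 2 (with *Insig1*) under normexp correction, quantile normalization, eBayes with trend and robust options, the mean over a gene's probes, and an unadjusted p under 0.2 from limma or from the methods' t-test. It was 0 with no filter on dim probes, with an adjusted p under 0.05 and with the methods' t-test after Benjamini-Hochberg adjustment, and 0 to 1 with each array left out. With the replicate block it was 2 (and 2 for the cholesterol genes, against 4), with adjusted p from limma of 0.190 for *Srebf1* and 0.149 for *Insig1*. WT replicate 2 deviated most like KO replicate 3, whereas WT replicates 1, 3 and 4 deviated most like the KO mouse of their own number. Members called lower were 0 under every alternative run. Over the lists of pathway and target genes together, where 20 genes were called higher and 0 lower, 12 genes were called higher without a filter, 11 at an adjusted p under 0.05, and 12 to 25 with each array left out. Genes called lower numbered 1 with no minimum fold change and with either unadjusted p, and 0 to 1 with each array left out. *Rnf139* turned to 0.0026 under normexp. With each array left out, *Srebf1* minus *Srebf2* lay between 0.80 and 1.07 and *Insig1* minus *Insig2* between 0.56 and 0.96. For each, the adjusted exact p was above 0.05 in 2 of 8 cases. For *Srebf1* minus *Srebf2* the genotypes stayed apart in both cases, and only the adjustment over the pairs changed. *Agpat3* kept its call under all 20 alternatives, between -6.26 and -5.77. The cause of these shifts was not tested. The signal over background limits the dimmest member probes, those of *Mbtps1* and *Mbtps2* under a log2 signal of -2.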
